A study of Mus musculus with 2 samples.

Results

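The genes examined here make, desaturate and elongate fatty acids, build them into triglyceride and phospholipid, coat the lipid droplet and release fatty acids from it again. They are 36 genes listed by name for these roles, with no threshold on their values but with earlier results of these data known, and all 36 were found among 55450 genes of the GENCODE M21 annotation of the mouse genome. Their RNA was read in the adrenal gland of female B6CASTF1/J mice aged 36 days, the first-generation cross of the inbred strains C57BL/6J and CAST/EiJ. Total RNA (300 ng per library) was depleted of ribosomal RNA, spiked with ERCC RNAs and turned into strand-marking libraries, per the labels. The 2 libraries, replicate 1 and replicate 2, form 1 group with the same tissue, strain, sex and age. There was therefore no comparison of conditions, and 1 library against 1 allows no p-value. The sample characteristics number the animals 03 and 04, whereas the library descriptions number both 03 and both carry 1 donor identifier, so the SD over the libraries may be a spread between libraries of 1 animal. The maternal and paternal alleles were not separated, and the reference is the C57BL/6J assembly (mm10).

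Fatty acid synthesis starts when citrate leaves the mitochondrion and is split to acetyl-CoA, which is carboxylated to malonyl-CoA and polymerised to palmitate. Desaturases then insert double bonds, elongases add carbons, and acyl-CoA ligases activate the products for esterification. In the adrenal cortex the lipid droplet is known chiefly as a store of cholesteryl esters for steroid synthesis, while fat cells, which surround the gland, fill theirs with triglyceride. Whole-gland RNA holds both kinds of cell, and in bulk samples fewer cells of a type and less RNA per cell cannot be told apart.

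Levels are given as TPM, a transcript's share of all RNA molecules scaled to a fixed total, which divides reads by transcript length, so that genes can be compared within a library. The deposited gene tables held 35684781 expected counts in replicate 1 and 38701795 in replicate 2. Markers of the adrenal cortex were detected for 10 of 10 genes, with a summed level of 17886.6 and 18232.2 TPM in replicates 1 and 2, and markers of the chromaffin cells of the medulla for 8 of 8 (1508 and 1136 TPM). Markers of fat cells in general were detected for 9 of 10 genes (2080 and 2147 TPM) and those of brown fat for 8 of 8 (932.6 and 884.5 TPM). Among them the adipokine Adipoq stood at 83.04 and 87.84 TPM, and Lep at 0.63 and 0.46 TPM. The RNA was therefore adrenal with fat cell transcripts in both libraries at similar summed levels, and the part of fat cells in the levels below was not tested. All 6 skeletal muscle markers were lower in replicate 2, with a summed level of 257.6 against 2.08 TPM. Liver markers summed to 33.75 and 2.28 TPM.

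The gene set as a whole was high in this tissue. Of the 36 genes, 32 reached 1 TPM in both libraries, the level called detected here, beside 53.13% of 21938 protein-coding genes. At 100 TPM or more in both libraries stood 15 genes, 41.67% of the 36 and 46.88% of the 32 detected. Of protein-coding genes 497 did, 2.265% of all and 4.264% of the 11656 detected. The median level was 35.78 TPM over the 36 genes and 55.22 TPM over the 32 detected, beside 10.29 TPM over detected protein-coding genes. Together they took 1.808% of all counts in replicate 1 and 1.822% in replicate 2. Scd1, Fasn, Acly and Fads2 led in that order by mean, and the ranges of Fasn and Acly and of Acly and Fads2 over the libraries overlapped. Along the whole order of levels, 16 of 35 neighbouring pairs overlapped in this way. Seen by location, 7 of the genes lie on chromosome 19: Scd1, Scd2, Fads1, Fads2, Fads3, Gpam and Acsl5.

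**Figure D1:**
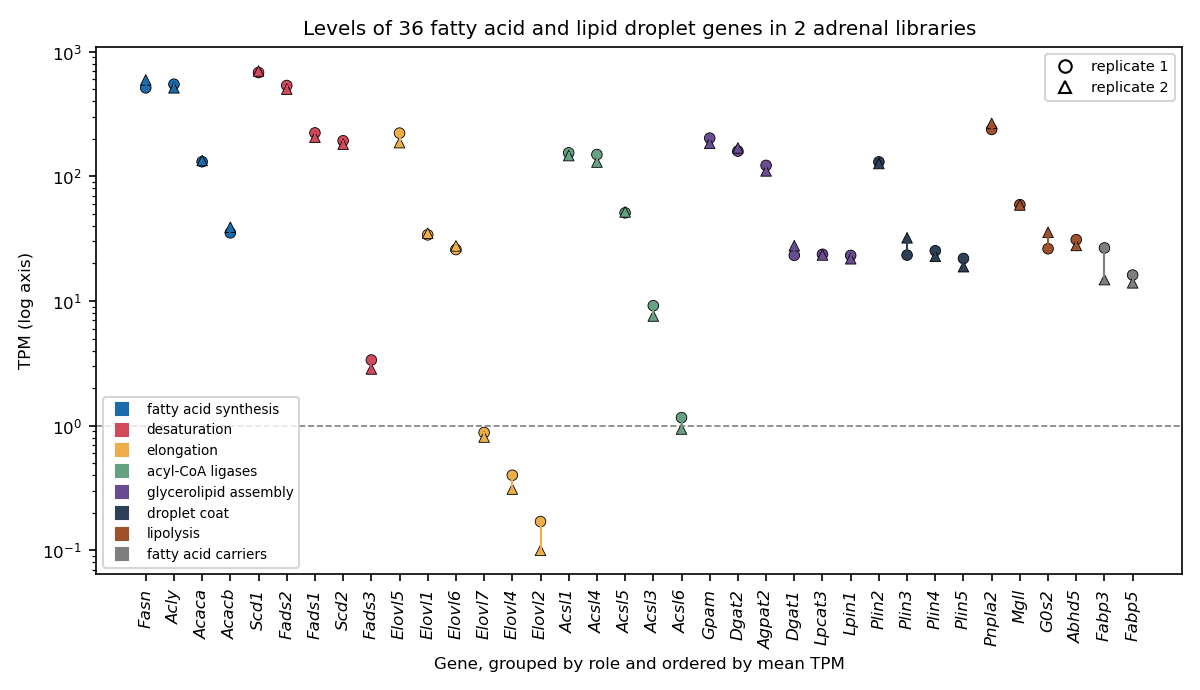
Level of each of the 36 genes in TPM (log axis), grouped by role and ordered by mean within a role; circles are replicate 1, triangles replicate 2, lines join the libraries of a gene and the dashed line marks 1 TPM. Scd1, Fasn, Acly and Fads2 lie at 500 TPM or above in both libraries, and 4 genes (Acsl6, Elovl7, Elovl4 and Elovl2) are below 1 TPM in at least 1 library.

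The 4 genes of palmitate synthesis were all detected, and 3 of them were above 100 TPM. Fasn, the multifunctional synthase that builds palmitate (ENSMUSG00000025153.9, chromosome 11, 120805846 to 120824547, minus strand), stood at 512.38 and 593.59 TPM in replicates 1 and 2, or 553.0 ± 57.4 TPM (SD, n = 2). Its share of the counts was 1.143 times as large in replicate 2 (95% exact interval 1.135 to 1.151). Intervals of this kind cover counting error only, since reads carry no stated molecular identifiers, and the spread between animals is not in them. Acly, which cleaves citrate to acetyl-CoA in the cytosol (chromosome 11, 100476353 to 100528000), stood at 548.04 and 512.88 TPM. Of the acetyl-CoA carboxylases, Acaca, the cytosolic form that feeds synthesis, stood at 130.91 and 133.96 TPM. Acacb, the form at the mitochondrial outer membrane whose malonyl-CoA restrains fatty acid entry, stood at 35.21 and 39.01 TPM. Acaca thus held 78.1 ± 0.990% (SD, n = 2) of the carboxylase TPM and was 3.718 and 3.434 times Acacb in the libraries. The log2 ratio of TPM, replicate 2 over replicate 1, was 0.21 for Fasn, -0.10 for Acly and 0.03 for Acaca. In the read-derived tables it was 0.20 for Fasn, while Acly stood at 898.7 and 898.0 TPM.

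The desaturases had the highest summed level of the roles, 1634 and 1590 TPM. Scd1, the delta-9 desaturase that makes oleate and palmitoleate (ENSMUSG00000037071.3, chromosome 19, 44394455 to 44407879, minus strand), was the highest of the 36 genes at 679.76 and 699.94 TPM (689.9 ± 14.3, SD, n = 2). It lay at the 99.8th percentile of detected protein-coding genes in both libraries. Its paralogue Scd2, best known from brain, stood at 192.8 and 180.95 TPM, and Scd1 held 78.7 ± 1.13% of the Scd1 and Scd2 TPM. The libraries were apart for Scd1 by 0.04 on the log2 scale of TPM, while its share of counts was 1.155 times as large in replicate 2 (95% exact interval 1.144 to 1.165). TPM divides the reads of each transcript by its length, and the alignment-derived share of Scd1-201 was 74.0% in replicate 1 and 85.1% in replicate 2, and that of Scd1-202 20.9% and 14.5%. The read-derived tables listed Scd1-202 at 0.0% in both libraries and gave Scd1-201 73.3% and 79.0%, so the tables did not share the shift of Scd1-202.

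The front-end desaturases of polyunsaturated fatty acids lie side by side on chromosome 19 and differed widely in level. Fads2, the delta-6 desaturase (10062765 to 10101746), stood at 534.9 and 500.73 TPM. Fads1, the delta-5 desaturase that acts later in the same pathway (10182888 to 10196877), stood at 222.9 and 205.75 TPM. Fads3, which acts on sphingoid bases, was the lowest at 3.36 and 2.85 TPM. The Fads2 to Fads1 ratio was 2.4 in replicate 1 and 2.434 in replicate 2, the closest between the libraries of the 7 gene ratios computed. Fads2 held 70.4 ± 0.212% (SD, n = 2) of the family's TPM and Fads3 0.4% in each library.

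Among the 6 elongases, 1 gene carried most of the level and 3 were not detected. Elovl5, which extends the polyunsaturated products of the Fads enzymes (chromosome 9, 77917364 to 77984519), stood at 222.02 and 186.33 TPM. It held 76.5 ± 2.76% (SD, n = 2) of the TPM of the 6 elongases examined. Elovl3, an elongase outside the 36 genes, stood at 11.79 and 8.04 TPM. Elovl1, an elongase of saturated very-long chains, stood at 33.93 and 34.98 TPM. Elovl6, which takes palmitate to stearate, stood at 25.86 and 27.68 TPM. The deposited intervals of the libraries overlapped for both. The share of counts in replicate 2 over that in replicate 1 was 1.076 for Elovl6 (95% exact interval 1.035 to 1.118) and 0.948 for Elovl1 (0.885 to 1.015). The others were near the floor of the assay: Elovl7 at 0.88 and 0.81 TPM, Elovl4, the elongase of ultra-long chains in retina and skin, at 0.40 and 0.31 TPM from 36 and 30 counts, and Elovl2, of the late polyunsaturated steps, at 0.17 and 0.10 TPM from 23 and 14 counts. At these depths a difference between the libraries was not detectable for the trio, whose 95% exact intervals for the ratio of count shares all held 1 (0.267 to 1.138 for Elovl2).

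Acyl-CoA ligases couple free fatty acids to coenzyme A, and 2 of the 5 genes shared the lead. Acsl1, the main ligase of fat and liver (chromosome 8, 46471037 to 46536051), stood at 154.31 and 146.74 TPM. Acsl4, which prefers arachidonate and is known from steroid-making cells (X chromosome, 142317993 to 142390535), stood at 149.56 and 130.22 TPM. In the alignment-derived tables their ranges over the libraries overlapped, with 42.9% of the family's TPM in Acsl1 and 39.8% in Acsl4. In the read-derived tables Acsl1 was further ahead, with 48.1% against 37.1% in replicate 1 and 51.7% against 34.2% in replicate 2. Acsl5, a ligase of the mitochondrial outer membrane and the intestine, stood at 50.93 and 51.85 TPM. Acsl3, which sits on nascent droplets, stood at 9.17 and 7.58 TPM, and Acsl6, of brain, at 1.16 and 0.94 TPM.

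Acsl1 has separate annotated starts, and the transcripts from them were told apart in the tables. Transcripts from the first start held 83.8% and 81.7% of the alignment-derived TPM of Acsl1 in replicates 1 and 2, and 81.9% and 85.7% of the read-derived TPM. Those from the second held 14.9%, 17.5%, 15.2% and 11.7% in the same order. The first start thus led in all 4 tables. The RefSeq windows of the starts (GRCm38.p6, plus strand, 250 bases before to 50 after) are shown because they differ in the motifs searched, which are in capitals: the sterol regulatory element TCACNCCAC bound by SREBP factors, the nuclear factor Y box CCAAT and the E-box CACGTG, each on either strand. The first lies at chr8:46470787-46471086 and holds none of them. The second lies at chr8:46490716-46491015 and holds 1 sterol regulatory element, 76 bases before the start and read on the minus strand, and 2 CCAAT boxes, also read on the minus strand.
Acsl1 first start: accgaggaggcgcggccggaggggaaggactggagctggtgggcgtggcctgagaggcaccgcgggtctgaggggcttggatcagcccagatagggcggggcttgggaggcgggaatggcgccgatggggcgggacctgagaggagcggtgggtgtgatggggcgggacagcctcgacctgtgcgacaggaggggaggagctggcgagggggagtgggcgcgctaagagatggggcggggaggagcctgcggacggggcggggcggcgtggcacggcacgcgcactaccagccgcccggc
Acsl1 second start: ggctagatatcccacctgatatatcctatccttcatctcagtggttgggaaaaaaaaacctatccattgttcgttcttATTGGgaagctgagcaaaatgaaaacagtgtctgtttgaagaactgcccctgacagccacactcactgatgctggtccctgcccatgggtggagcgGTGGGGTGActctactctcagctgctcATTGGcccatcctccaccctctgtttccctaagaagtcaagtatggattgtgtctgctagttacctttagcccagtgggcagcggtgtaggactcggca
A match describes letters in the window, not a bound site.

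The RefSeq table held windows for 30 of the 36 genes, 38 windows in all, and none for Scd1, Scd2, Fads1, Dgat1, Dgat2 and Fabp5. The Acsl1 window was the only one of the 38 (2.632%) with the sterol regulatory element as spelled, beside 1.242% of 32851 mouse windows of that length. The CCAAT box was in 18 windows of 17 genes (47.37%), beside 37.41% of all windows. The E-box was in 4 windows (10.53%), those of Elovl4, Elovl5, Mgll and Plin2, beside 7.15%. Motifs were searched separately and matches may share bases, as CCAAT matches on opposite strands do in the Fasn window, which held 3.

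Glycerolipid assembly was covered by 6 genes, all detected. Gpam, the mitochondrial acyltransferase that starts glycerolipid synthesis, stood at 202.45 and 184.0 TPM (chromosome 19, 55067268 to 55127238). Agpat2, which adds the next acyl chain, stood at 122.34 and 110.54 TPM, and Lpin1, the phosphatidate phosphatase, at 23.19 and 21.82 TPM. The last step to triglyceride is shared by unrelated enzymes of unequal level here. Dgat2 stood at 159.34 and 169.01 TPM and Dgat1 at 23.24 and 27.76 TPM, so that Dgat2 was 6.856 times Dgat1 in replicate 1 and 6.088 times in replicate 2. Lpcat3, which puts polyunsaturated chains into phospholipids, stood at 23.69 and 23.4 TPM. Exons of Agpat2 overlap those of Egfl7, an endothelial gene on the opposite strand (35.98 and 26.18 TPM), and those of Lpcat3 overlap Emg1. Whether the counting used strand is not given in the sources used here, and how reads in the shared bases were assigned was not tested. Expected counts were whole numbers in both libraries for Agpat2, Egfl7, Lpcat3 and Emg1. Of the 36 genes, 13 have an exon that overlaps an exon of another gene.

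The coat proteins of the droplet were led by 1 perilipin. Plin2, which coats droplets in most cell types (chromosome 4, 86648386 to 86670060), stood at 130.55 and 126.74 TPM and held 64.1 ± 1.2% (SD, n = 2) of the TPM of the 4 perilipins examined. Plin4, of fat and muscle, stood at 25.28 and 22.82 TPM, and Plin5, of oxidative tissues, at 21.92 and 18.85 TPM. Plin3, which is recruited from the cytosol to small droplets, stood at 23.34 and 32.13 TPM. Of these last 3, Plin4 was highest in replicate 1 and Plin3 in replicate 2 in the gene tables. In the read-derived tables Plin3 was highest in both, at 52.66 and 70.44 TPM. Plin1, the coat protein of fat cells, is outside the 36 genes and stood at 151.51 and 151.86 TPM, above Plin2 in both libraries.

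Fatty acids leave the droplet through lipases and their partners, and Pnpla2, the lipase ATGL that opens triglyceride breakdown, led this group (ENSMUSG00000025509.15, chromosome 7, 141455198 to 141460743, plus strand). It stood at 237.66 and 265.76 TPM (251.7 ± 19.9, SD, n = 2). Its coactivator Abhd5, or CGI-58, stood at 31.03 and 27.91 TPM, and its inhibitor G0s2 at 26.25 and 35.53 TPM. Over all transcripts of each gene, the TPM of Pnpla2 was thus 7.659 and 9.522 times that of Abhd5 in replicates 1 and 2. It was 9.054 and 7.48 times that of G0s2. For Pnpla2 and Abhd5 these sums include transcripts annotated for decay, described below. Abhd5 was above G0s2 in replicate 1 and below it in replicate 2. Mgll, which takes the last chain off monoglyceride, stood at 59.2 and 58.9 TPM. Its log2 ratio of -0.007 was the smallest in size of the 34 genes with 200 or more counts over both libraries.

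Pnpla2 and Abhd5 were the only 2 of the 32 detected genes whose leading transcript in the alignment-derived table of replicate 1 is annotated as a target of nonsense-mediated decay, the pathway that removes mRNA with an early stop. The same count over all detected protein-coding genes was not made, so 2 of 32 is a description only. Pnpla2-201 held 56.1% and 52.1% of the Pnpla2 TPM in the alignment-derived tables of replicates 1 and 2, and 45.8% and 44.5% in the read-derived ones. Abhd5-201 held 59.1% and 57.0%, then 56.2% and 54.2%. Both led in all 4 tables. The highest protein-coding transcripts held 18.9%, 20.9%, 17.1% and 18.5% (Pnpla2-202) and 32.5%, 31.6%, 30.4% and 27.0% (Abhd5-204).

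In the annotation, Pnpla2-201 carries an exon of 82 bases at chromosome 7, 141456568 to 141456649, which is absent from Pnpla2-202 and is not a multiple of a codon in length. The reading frame meets a stop inside it. The exon is part of 2 of 7 Pnpla2 transcripts, which together held 57.2% and 55.6% of the TPM in the alignment-derived tables and 56.4% and 54.8% in the read-derived ones. The summed share was thus nearer between the tables than that of Pnpla2-201 alone. A further exon of 168 bases (141458592 to 141458759), a multiple of 3, is in Pnpla2-201 but not in Pnpla2-202. Pnpla2-202 codes for 430 codons and would have 486 with it. The 4 transcripts with that exon held 79.7%, 77.8%, 71.8% and 70.3%. Abhd5-201 carries an exon of 50 bases at chromosome 9, 122363815 to 122363864, absent from Abhd5-204, and its frame stops in the next exon at 122365147 to 122365149. Abhd5-204 codes for 351 codons and ends 1699 bases further 3′. The stretches from the first base of the added exon to the stop, read from the GENCODE M21 transcripts (mm10, plus strand, spliced), show where each frame ends, with the stop codon in capitals.
Pnpla2-201: gtgatcttgagcagctagaacaaTGA
Abhd5-201: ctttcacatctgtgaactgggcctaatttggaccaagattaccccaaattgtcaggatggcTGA
The tables give reads per transcript, not per exon, so which exons drew the reads was not tested.

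The fatty acid carriers were the role with the largest difference between the libraries. Fabp3, the heart and muscle fatty acid binding protein (ENSMUSG00000028773.8, chromosome 4, 130308595 to 130315463, plus strand), was higher in replicate 1, with 26.64 against 14.85 TPM from 695.51 and 416 expected counts. The log2 ratio of replicate 2 over replicate 1 was -0.84, and its share of counts was 0.551 times that of replicate 1 (95% exact interval 0.487 to 0.623). The deposited intervals, 24.1 to 28.03 TPM and 13.18 to 15.99 TPM, did not overlap. The read-derived tables gave 55.78 and 31.48 TPM, a log2 ratio of -0.82. Fabp5, the epidermal paralogue, stood at 16.14 and 13.99 TPM with overlapping intervals. Fabp3 held 62.3% of their joint TPM in replicate 1 and 51.5% in replicate 2. In replicate 2 the deposited interval of Fabp5, 12.49 to 15.03 TPM, overlapped that of Fabp3. Fabp5 also had more expected counts there (490.39 against 416), so their order in replicate 2 was not settled.

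The 6 skeletal muscle markers were all lower in replicate 2 as well, among them Acta1 at 97.62 and 1.11 TPM and Ckm at 45.87 and 0.2 TPM. Brown fat also contains Fabp3, and of its 8 markers 5 were lower in replicate 2 and 3 higher. Their log2 ratios ran from -0.57 (Dio2, at 8.21 and 5.5 TPM) to 0.35 (Prdm16, at 1.51 and 1.95 TPM) with a median of -0.16, and Ucp1 stood at 319.7 and 257.24 TPM. Exons of Fabp3 overlap those of Zcchc17 on the opposite strand, which stood at 13.71 and 13.92 TPM. The part of muscle or brown fat RNA in the Fabp3 difference was not tested.

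**Figure D2:**
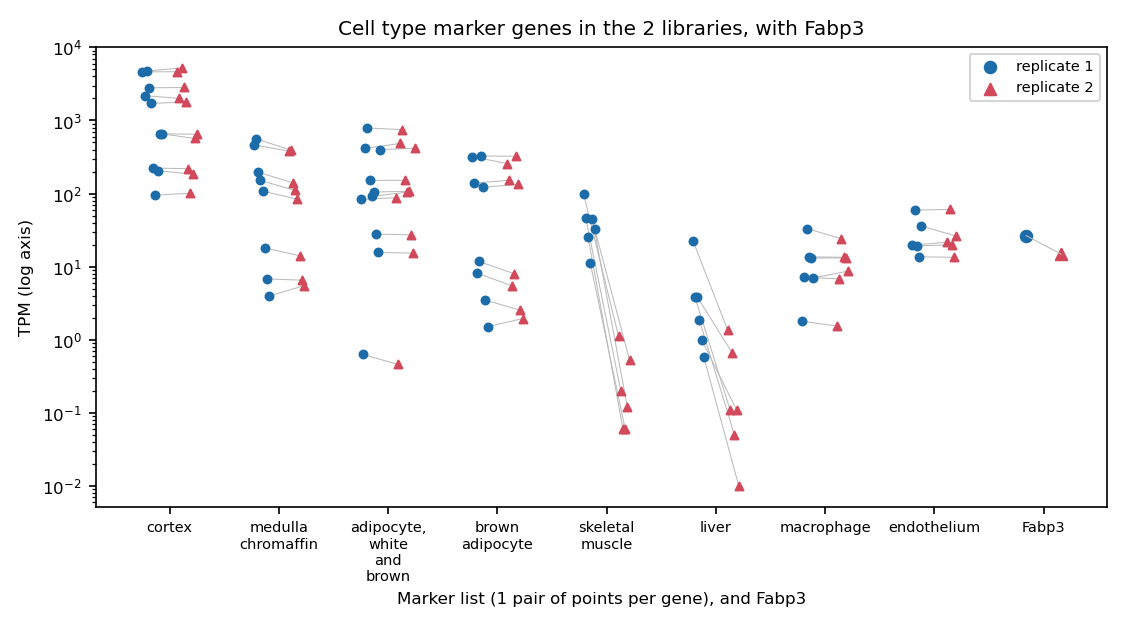
Level in TPM (log axis) of each marker gene of 8 cell types in replicate 1 (blue circles) and replicate 2 (red triangles), with a grey line joining the libraries of a gene, and of Fabp3 at the right. The skeletal muscle genes lie between 11.31 and 97.62 TPM in replicate 1 and between 0.06 and 1.11 TPM in replicate 2. The 8 brown fat genes lie on both sides, from a log2 ratio of -0.57 for Dio2 to 0.35 for Prdm16.

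Across the set, Fabp3 was the only 1 of the 34 genes with 200 or more summed counts that was 1.5-fold or more apart between the libraries, beside 3.57% of 12275 genes with such counts (438). A share so near the background says nothing about the set. At a log2 ratio of 0.32 or more either way there were 3 genes, Fabp3, Plin3 and G0s2, beside 14.04% of all. The log2 ratios of replicate 2 over replicate 1 ran from -0.84 to 0.46 with an SD of 0.23, beside 0.37 over all genes. Their median was -0.09, beside 0.04 over all, and 22 of the 34 were lower in replicate 2, beside 41.34% of all genes. The set also had more reads per gene, with a median of 10938 summed counts beside 1708 over all.

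Among the 12 highest genes, the library differences were small beside their levels. The share of counts in replicate 2 over that in replicate 1 was lowest for Elovl5, at 0.811 (95% exact interval 0.795 to 0.827), and Acsl4, at 0.861 (0.846 to 0.876). It was 0.909 (0.893 to 0.925) for Fads1, 0.911 (0.898 to 0.925) for Gpam, 0.914 (0.905 to 0.923) for Acly, 0.924 (0.913 to 0.934) for Fads2, 0.928 (0.915 to 0.942) for Scd2 and 0.944 (0.925 to 0.964) for Acsl1. It was above 1 for Dgat2, at 1.043 (1.018 to 1.069), and Pnpla2, at 1.076 (1.053 to 1.1), as for Fasn and Scd1 above. By share of counts, 8 of the 12 were thus lower and 4 higher in replicate 2, each with an interval that left out 1. Counting error alone is small at these depths, and the same count over all genes was not made. The deposited TPM intervals of the libraries overlapped for Scd1 and Acsl1. In the read-derived tables the log2 ratio was -0.001 for Acly and 0.0 for Acsl1.

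Plin3 and G0s2 were the furthest of those higher in replicate 2. For G0s2 the log2 ratio was 0.44 in TPM and 0.40 in the read-derived table, and the share of counts was 1.338 times as large (95% exact interval 1.217 to 1.473). For Plin3 the log2 ratio was 0.46 in TPM and 0.42 in the read-derived table, and the share of counts was 1.197 times as large (1.125 to 1.273). Plin3-202 held 44.9% of the Plin3 TPM in replicate 1 and 53.4% in replicate 2 in the alignment-derived tables, and led in both read-derived tables with 61.4% and 66.4%. The deposited TPM intervals of the libraries did not overlap for 18 of the 34 genes, beside 14.9% of 12275 genes. These intervals narrow with the counts, and their level is not given in the sources used here. They do not hold the spread between animals, and 11 of 72 values of the set lie outside their own interval, those of Acly and Fads2 among them.

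**Figure D3:**
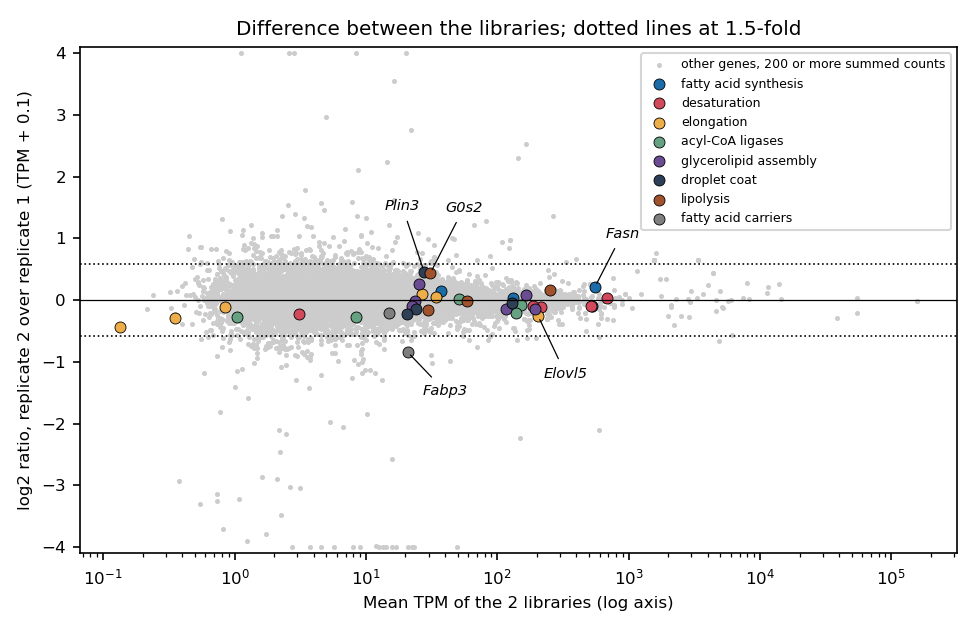
Log2 ratio of TPM + 0.1, replicate 2 over replicate 1, against the mean TPM of the libraries (log axis) for the 36 genes, coloured by role, over all other genes with 200 or more summed counts (grey); ratios beyond 4 either way are drawn at the edge and dotted lines mark 1.5-fold. Fabp3 lies below the lower line at -0.84, and the other members lie between the lines.

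The tables made from a transcriptome alignment and those made straight from the reads gave similar levels once both were scaled to nuclear protein-coding genes. None of the 32 detected genes was 1.5-fold or more apart between the tables in both libraries, beside 3.98% of 11656 detected protein-coding genes. The ratios of read-derived to alignment-derived level ran from 0.7387 (Acsl5, replicate 2) to 1.197 (Elovl1, replicate 1). Fasn was lower in the read-derived tables, at 0.8168 and 0.8123 times. A read matching more than 1 gene can count in part for each, and expected counts were not whole for 7 of the genes: Acaca, Scd1, Scd2, Acsl3, Plin2, Fabp3 and Fabp5.

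Transcripts were less settled than genes. The leading transcript was the same in all 4 tables for 24 of the 32 detected genes. Among genes with more than 1 annotated transcript it was the same for 22 of 30 (73.33%), beside 67.9% of 10662 such protein-coding genes. Scd2-201, Fads1-201, Fads2-201, Dgat2-201 and Fabp5-201 each held 94.9% or more of their gene in every table. Elovl5-201 held between 90.7% and 99.3%, Gpam-202 between 69.4% and 81.5%, Acsl4-203 between 70.4% and 74.2%, Acly-201 between 62.9% and 71.0%, and Acsl1-201 between 47.7% and 79.7%. The 8 exceptions were Fasn, Elovl1, Acsl3, Agpat2, Lpin1, Plin3, Plin4 and Plin5. For Fasn, the alignment-derived tables gave most to Fasn-201 (40.1% and 40.8%) and the read-derived ones to Fasn-205 (55.1% and 57.1%), both protein-coding. For Agpat2, the coding Agpat2-201 led with 65.8% and 66.2% in the former and the processed transcript Agpat2-202 with 43.8% and 48.7% in the latter. Elovl1-202, from a separate start, held 1.3% and 1.2% in the former and 37.4% and 35.1% in the latter.

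Lpin1 and the perilipins differed in other ways. The Lpin1-202 start held 38.4% and 28.7% in the alignment-derived tables and 57.3% and 59.1% in the read-derived ones. Acsl3-205 led with 71.6% and 77.4% in the former and Acsl3-203 with 34.9% and 39.2% in the latter. Plin4-202 held all of the alignment-derived TPM in both libraries but 63.0% and 43.5% of the read-derived. Plin5-201 held 56.9% in replicate 1 and 36.6% in replicate 2, then 90.5% and 56.5%. For these genes the tables gave a level of the gene but no agreed leading transcript.

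**Figure D4:**
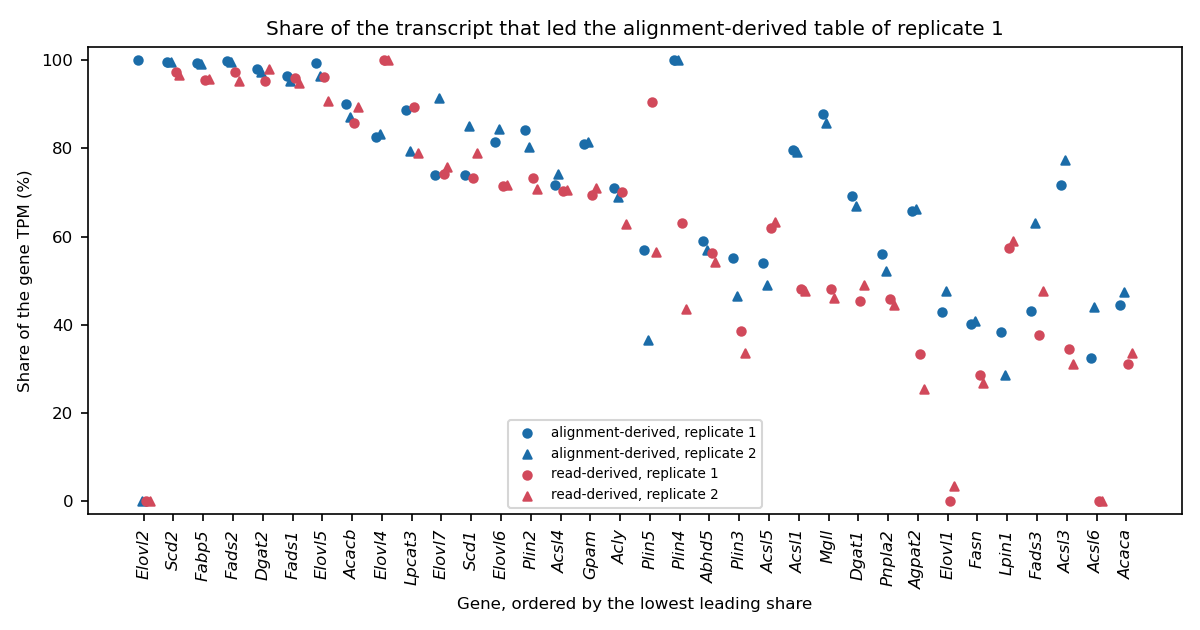
Share of the gene's TPM (%) held by the transcript that led the alignment-derived table of replicate 1, in the alignment-derived (blue) and read-derived (red) tables of replicate 1 (circles) and replicate 2 (triangles), for the genes with more than 1 transcript ordered by their lowest leading share. The points of Scd2, Fads2 and Dgat2 lie close together near the top, and those of Elovl1, Fasn and Acsl3 are spread between the tables.

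Other genes of these pathways were detected for 70 of 78. Of 20 genes that supply or regulate lipogenesis all 20 were detected (median 26.27 TPM), led by Me1, the malic enzyme that yields NADPH, at 499.62 and 434.62 TPM, and Thrsp, a lipogenic nuclear and cytosolic protein, at 247.83 and 227.6 TPM. Srebf1, the factor that drives lipogenic genes, stood at 44.5 and 48.61 TPM. Partners of elongation and desaturation were detected for 11 of 12 (median 22.77 TPM) and further assembly enzymes for 11 of 14 (median 8.183 TPM). The highest of these 14 stood at 119.7 and 123.2 TPM. The median of the 6 assembly genes examined was 70.95 TPM, but those were chosen with earlier results of these data known. Droplet genes were detected for 11 of 14 (39.08 TPM), led by Soat1, which esterifies cholesterol, at 324.07 and 313.97 TPM. Genes of lipolysis and fatty acid handling were detected for 17 of 18 (52.17 TPM), led by the fat cell carrier Fabp4 at 789.7 and 748.81 TPM. Dbi, the acyl-CoA binding protein, stood at 285.34 and 261.88 TPM, and Cd36, the fatty acid translocase, at 162.21 and 163.25 TPM.

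Of 69 of these genes with 200 or more summed counts, 2 were 1.5-fold or more higher in replicate 2 and 0 lower, a share near the 3.57% of all genes apart in either direction. They were Slc27a2, an acyl-CoA ligase and transporter of very-long chains, at 6.0 and 12.39 TPM, and Acot1, a cytosolic acyl-CoA thioesterase, at 2.26 and 6.89 TPM. The log2 ratios were 1.03 and 1.57. Acot1 has a close paralogue, so its reads may be divided between the copies.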

How the data were processed

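Of 3 tables per library, 1 lists genes and 2 list transcripts. An expected count and TPM fill the gene table and one transcript table, called alignment-derived here, per the file headers, under column names that RSEM writes. The text deposited beside them names mm10, annotation M21 and a transcriptome alignment. The read-derived transcript table holds an estimated count and TPM per the file headers, under the column names that kallisto writes. For aligner, tools and versions, nothing is stated in the labels or headers. Bounds of an interval around TPM, as deposited, are a signal whose level is unstated.

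Genes were matched by identifier and their transcripts summed. No test was made, since 1 library stood against 1. Ratios used TPM + 0.1 and 200 or more summed counts, quantifications were compared as TPM + 1 rescaled to nuclear protein-coding genes, and intervals of count share ratios are exact (Clopper-Pearson) at 95%. Other scalings were TMM (edgeR 4.0.16) and DESeq2 1.42.0 size factors, in R 4.3.3, with the rest in Python 3.11.15. The code for the calls was run on simulated counts with known 2-fold changes. Those counts held counting error only, so the run says nothing about spread between libraries or animals. Replicates are the labels' numbers. In a group of 2 libraries no outlier rule was run.

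The members and lists were chosen with earlier results of these data known. The rule named every member, in full the 12 highest, those 1.5-fold apart, those under 1 TPM and those without 1 leading transcript, and of other pathway genes the 6 highest and those 1.5-fold apart. Plin1, Srebf1, overlapping genes and markers were named beside the result they touch. Sequences came from the GENCODE M21 transcripts and RefSeq windows (GRCm38.p6).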

Additional observations from a re-analysis of the deposited data

How the results depend on the processing

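The number of genes detected ran from 31 to 34 of 36, those at 100 TPM or more from 15 to 19, and the median log2 ratio between the libraries from -0.13 to -0.07 over the settings tried. Fabp3 was the only gene of the set 1.5-fold apart under TPM + 1, beside 1.841% of all genes, and without a filter, beside 8.683%. The same held at 1000 or more summed counts (1.802%), with TMM (2.729%) and with DESeq2 size factors (2.729%). It also held with protein-coding scaling (3.772%) and in the read-derived tables (4.238%). Beside such shares, 1 gene says nothing about the set. With TMM 24 of the 34 genes were lower in replicate 2, beside 50.26% of all. At 2-fold 0 genes of the set were apart, with no share over all genes given here. At a log2 ratio of 0.32 or more there were 3, beside 14.04% of all. The median level was 68.57 TPM in the read-derived tables and 114.7 TPM when scaled to protein-coding genes, which take 31.16% and 31.22% of the deposited TPM, so levels in TPM hold within a table only. Without rescaling, 31 genes were 1.5-fold apart between the tables, where the median over protein-coding genes was itself 1.65 and 1.646-fold. Without replicate 1 or 2, the median level was 37.27 and 34.57 TPM. The same transcript led in all 4 tables for 24 genes, and for 17 where it had to hold 50% or more of the gene. No paired analysis was possible because there was 1 group.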
